A study of Homo sapiens with 42 samples.

Results

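Bleomycin replicate 4 is a set of 3 RNA-seq libraries of IMR90 cells, a human fetal lung fibroblast strain, among 42 libraries in the series. The 3 libraries are the control shRNA, COPB2 shRNA 1 and COPB2 shRNA 2 cultures numbered 4, and they were selected on their readout: the cytokine transcripts CXCL8, IL6 and IL1B stood far above those of the other 9 bleomycin libraries (replicates 1 to 3 of the same 3 shRNAs). The difference between replicate 4 and replicates 1 to 3 under bleomycin is therefore described below without a test, and the 3 libraries, which share a number, are not 3 independent replicates of it. Tests were run only on libraries or contrasts that the choice did not use. Some of these contrasts, such as bleomycin against DMSO in replicates 1 to 3 and the COPB2 shRNA contrasts, share libraries with the choice.

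IMR90 cells received 50 µg/ml bleomycin, a DNA-breaking drug that drives these cells into senescence, for 24 h or DMSO as vehicle, then 7 days of culture. An inducible vector was then switched on with doxycycline (1 µg/ml, 72 h). It expressed a control shRNA or 1 of 2 shRNAs to COPB2, a subunit of the COPI coatomer that coats Golgi transport vesicles, and cells were sampled on day 10. All groups, the controls included, therefore carried an induced shRNA and received doxycycline. IMR90 groups have 4 libraries each (12 with bleomycin, 12 with DMSO). The other 18 libraries are IMR90 ER:RAS cells, in which 100 nM 4-hydroxytamoxifen (4OHT) activates an oncogenic RAS fused to the estrogen receptor and produces oncogene-induced senescence (OIS), with DMSO as vehicle and 3 replicates a group, none of them numbered 4. The study describes its replicates of the senescent knockdown groups as independent experiments, fewer a group under bleomycin than the libraries analysed here, and does not say which numbers they are or what a number stands for. P-values measure the spread between these libraries. Apart from fits with a replicate block, which takes out the difference between numbers, they treat same-numbered libraries as independent.

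Senescent fibroblasts secrete a mixture of chemokines, interleukins, growth factors and proteases known as the senescence-associated secretory phenotype, or SASP. Interleukin-1 acting through its receptor IL1R1 switches on the transcription factor NF-kB, which, with C/EBP-beta and AP-1, drives transcription of CXCL8 and IL6. Because CXCL8 is a neutrophil attractant, IL6 an acute phase cytokine and IL1B itself an activator of IL1R1, the 3 genes are common readouts of this secretory programme.

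The promoters of the 3 marker genes and of 2 neighbours of CXCL8 are shown because these genes carry the difference described below and NF-kB is their textbook regulator. Each sequence is the 250 bases before the RefSeq transcription start (GRCh38.p14), read 5′ to 3′ on the gene's own strand, with matches to the kB-like motif GGNNNTTCC or its reverse complement in capitals. They lie at chr4:73740319-73740568, plus strand (CXCL8), chr7:22726950-22727199, plus strand (IL6), chr2:112836780-112837029, minus strand (IL1B), chr4:73998678-73998927, minus strand (CXCL5) and chr4:73869143-73869392, plus strand (CXCL1).
CXCL8 promoter: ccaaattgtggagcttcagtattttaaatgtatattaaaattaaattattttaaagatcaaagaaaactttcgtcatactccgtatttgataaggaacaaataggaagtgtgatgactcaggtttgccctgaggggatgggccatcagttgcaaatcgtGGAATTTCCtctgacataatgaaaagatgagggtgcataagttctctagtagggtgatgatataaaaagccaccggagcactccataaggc
IL6 promoter: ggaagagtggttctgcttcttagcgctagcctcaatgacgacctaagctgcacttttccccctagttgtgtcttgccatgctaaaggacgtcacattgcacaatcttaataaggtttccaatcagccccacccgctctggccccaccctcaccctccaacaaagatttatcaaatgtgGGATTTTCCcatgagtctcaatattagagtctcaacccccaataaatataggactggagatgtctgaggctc
IL1B promoter: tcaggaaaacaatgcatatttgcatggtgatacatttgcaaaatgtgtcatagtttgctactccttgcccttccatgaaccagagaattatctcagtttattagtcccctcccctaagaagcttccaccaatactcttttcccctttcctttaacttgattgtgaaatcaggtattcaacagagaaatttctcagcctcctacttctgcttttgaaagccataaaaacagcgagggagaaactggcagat
CXCL5 promoter: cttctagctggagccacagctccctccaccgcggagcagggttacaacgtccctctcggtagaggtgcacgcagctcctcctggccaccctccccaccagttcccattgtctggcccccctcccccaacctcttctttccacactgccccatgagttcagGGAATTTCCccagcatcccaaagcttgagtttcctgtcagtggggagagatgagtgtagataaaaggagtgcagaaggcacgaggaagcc
CXCL1 promoter: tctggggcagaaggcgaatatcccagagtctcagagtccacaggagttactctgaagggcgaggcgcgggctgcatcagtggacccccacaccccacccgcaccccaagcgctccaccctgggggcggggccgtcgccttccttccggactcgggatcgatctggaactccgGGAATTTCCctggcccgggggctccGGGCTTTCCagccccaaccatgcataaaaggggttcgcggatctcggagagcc
Counting the base before the start as -1, the match begins at -91 in CXCL8, -72 in IL6 and -90 in CXCL5, and CXCL1 has a pair, beginning at -78 and -53. The letters were not found in the IL1B window. CXCL8 also holds a match to the AP-1 motif TGANTCA, on either strand, beginning at -137. In the promoters of all 14783 genes tested that had a sequence (11413 genes, 300 bases from 250 before to 50 after the start), 23% held the kB-like letters and 4.8% the AP-1 letters. Of the 20 genes named below as highest in replicate 4, 17 had a promoter sequence and 8 of these (47.1%) held the kB-like letters. Of those 8, 6 are neighbouring CXC chemokine genes of 1 cluster (CXCL8, CXCL6, CXCL1, CXCL5, CXCL3 and CXCL2), so they are not separate instances. The AP-1 letters were in 17.6% of the 17, and of 11 promoters of the 15 lowest genes 27.3% held the kB-like and 18.2% the AP-1 letters. Over the wider set of 369 genes higher in replicate 4 the share was 25.1% of 275 promoters for kB-like letters and 10.9% for AP-1, and over the 161 lower genes it was 15.7% and 9.09% of 121. A match of these letters is a description of sequence, not evidence of a bound site.

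The marker transcripts are given in CPM, read counts divided by library size and scaled so that the 42 libraries can be compared. CXCL8 stood at 1145 CPM with the control shRNA, 8645 with COPB2 shRNA 1 and 4267 with COPB2 shRNA 2 in bleomycin replicate 4. In replicates 1, 2 and 3 it stood at 96.6, 37.0 and 41.1 CPM with the control shRNA, at 83.7, 75.5 and 41.5 with shRNA 1, and at 214, 60.5 and 219 with shRNA 2. No replicate 4 library came near the highest of the other 9, and in all 12 DMSO libraries CXCL8 lay between 0.65 and 3.03 CPM, replicate 4 included at 1.22 to 2.00.

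IL6 also stood highest with shRNA 1 and lowest with the control shRNA in replicate 4. It was at 187, 967 and 504 CPM in bleomycin replicate 4 with the control shRNA, shRNA 1 and shRNA 2. In replicates 1, 2 and 3 it was 19.6, 18.5 and 7.36 CPM with the control shRNA, 12.1, 21.3 and 7.38 with shRNA 1, and 44.0, 25.5 and 28.8 with shRNA 2. Its DMSO levels (4.27 to 7.72 CPM) overlapped those of bleomycin replicate 3 with the control shRNA and shRNA 1, whereas all 3 replicate 4 libraries lay far above both.

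IL1B was the lowest-ranked of the 3 markers by difference. It stood at 89.0, 591 and 198 CPM in replicate 4. In replicates 1, 2 and 3 it was 22.5, 9.40 and 10.1 CPM with the control shRNA, 16.9, 13.9 and 8.97 with shRNA 1, and 40.7, 11.2 and 26.1 with shRNA 2. The groups did not overlap, and DMSO levels were 0.301 to 1.10 CPM.

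On the log2 scale, with shRNA as a factor, the difference of bleomycin replicate 4 from replicates 1 to 3 was 5.58 for CXCL8 (SE 0.47), 4.78 for IL6 (SE 0.38) and 3.95 for IL1B (SE 0.42). As ratios of mean CPM these are 48.5-fold, 26.9-fold and 16.5-fold. With the control shRNA alone, without any knockdown, replicate 4 was 19.7-fold (CXCL8), 12.3-fold (IL6) and 6.36-fold (IL1B) above the mean of its 3 counterparts. With shRNA 1 the same ratios were 129, 71.2 and 44.6, and with shRNA 2 they were 25.9, 15.4 and 7.61.

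**Figure D1:**
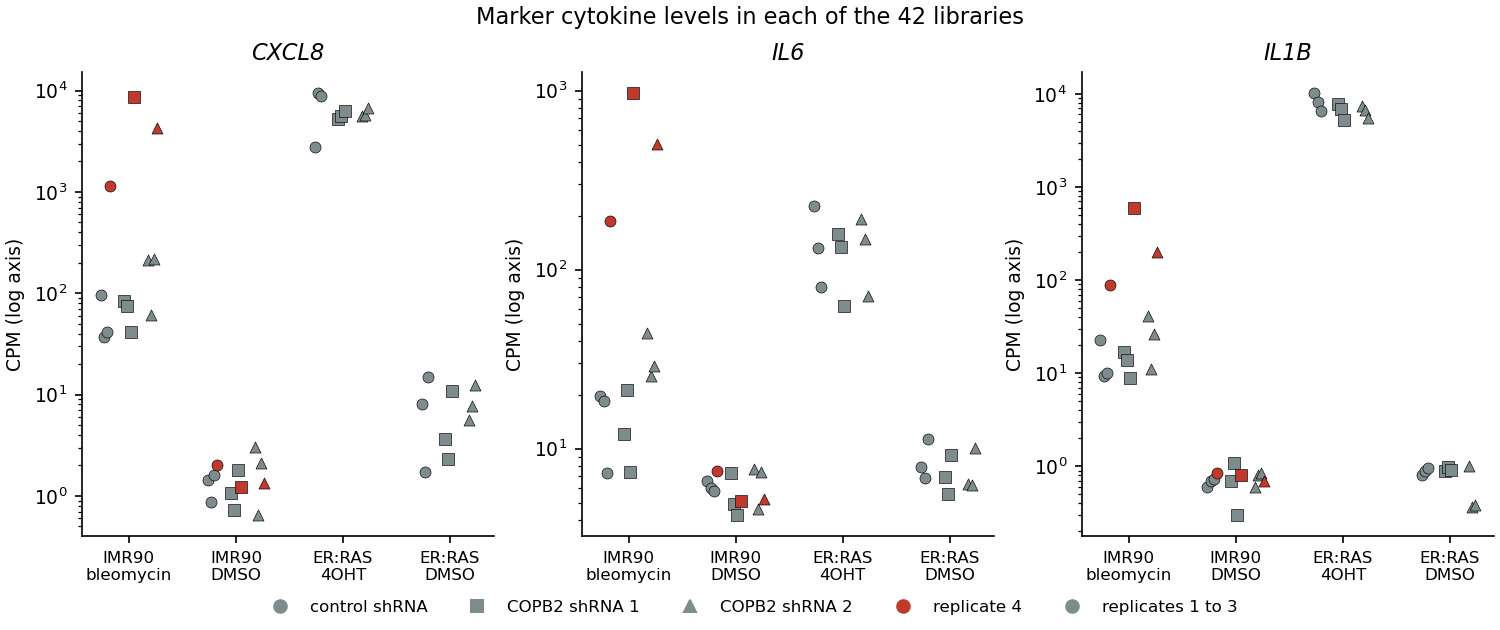
CPM (log axis) of CXCL8, IL6 and IL1B in every library, by cell line and treatment on the x axis, with shRNA by symbol and replicate 4 in red. The 3 bleomycin replicate 4 points stand above all 9 other bleomycin points for each gene (CXCL8 1145 to 8645 CPM against 37.0 to 219), while the DMSO replicate 4 points lie among the other DMSO points.

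The DMSO libraries of replicate 4 served as a check for a batch that carries the number, since they were not used in choosing the bleomycin libraries. CXCL8 differed between DMSO replicate 4 and replicates 1 to 3 by 0.10 on the log2 scale (SE 0.60), IL6 by -0.01 (SE 0.41) and IL1B by 0.14 (SE 0.60), each at an adjusted p of 1 in edgeR's quasi-likelihood test. Over all 14783 genes 0 were called (0% of those tested, adjusted p under 0.05), 166 had an unadjusted p under 0.05, and DESeq2's Wald test also called 0. Same-numbered DMSO libraries deviated together (correlation 0.174 to 0.910), so the check rests in effect on 1 number against 3. The 0 calls therefore do not show that no batch exists. Leaving out DMSO and bleomycin replicate 2 gave 1 call, IGSF10, an immunoglobulin superfamily gene that is no cytokine, at a log2 difference of 1.76 (SE 0.22, adjusted p = 0.0208).

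By the description used for bleomycin (all 3 replicate 4 libraries beyond all 9 others and a log2 difference of at least 1), 3 genes were higher in DMSO replicate 4, 0.0203% of those tested, and 7 were lower, 0.0474%. The 3 higher genes, chosen after their values were seen, were LRRC36, HRAT92 and CCDC88C, all below 1.2 CPM in DMSO. Under bleomycin the same description took in 369 higher genes, 2.5% of those tested, and 161 lower genes, 1.09%. Both shares follow from how the 3 libraries were chosen and are read only as the size of the set. The median difference over all genes was 0.00 under bleomycin and -0.01 in DMSO.

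The differences of the same genes in DMSO were small. Of the 369, 211 had a positive and the rest a negative DMSO difference, with a median of 0.04 on the log2 scale, and 2 stood above all other DMSO libraries in all 3 of replicate 4, TNFSF10 and LOC105371763 (named after their values were seen). Of the 161 lower genes 59 were positive in DMSO, with a median of -0.09. At the edge of the sets KCNA3 entered at 1.001 and DYNC2LI1 stayed out at 0.999, and on the lower side NRXN3 entered at -1.0015 and PALM stayed out at -0.998.

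**Figure D2:**
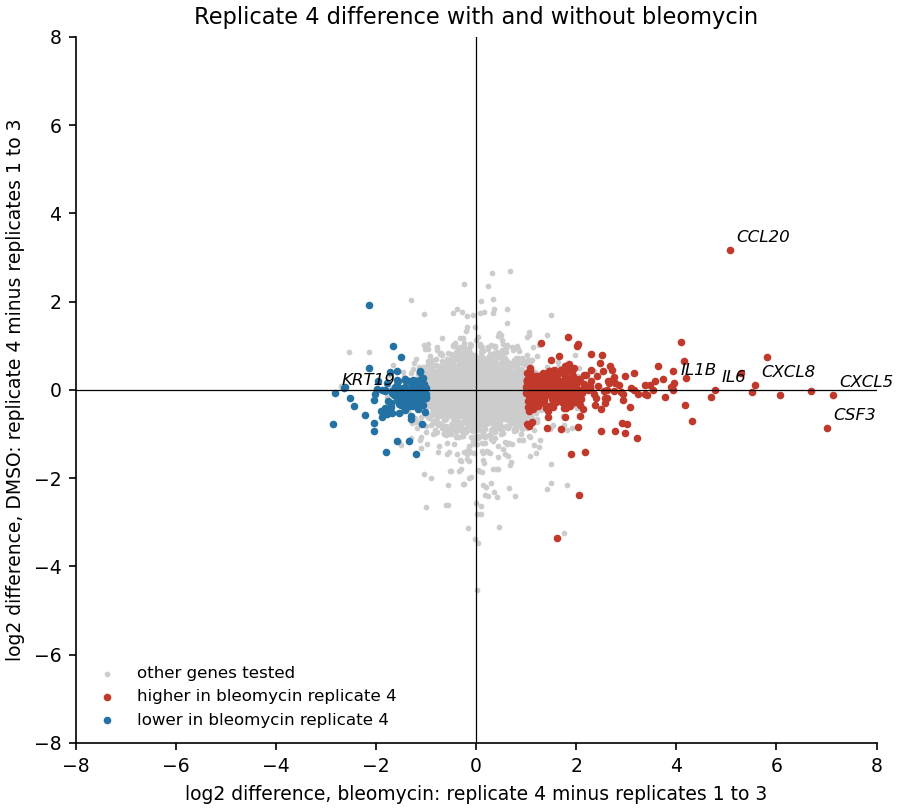
Each point is 1 of 14783 genes, with the log2 difference of replicate 4 from replicates 1 to 3 under bleomycin on the x axis and in DMSO on the y axis. The 369 higher (red) and 161 lower (blue) genes spread along the x axis and lie around 0 on the y axis, where CCL20 at 3.16 rests on DMSO levels of at most 0.105 CPM.

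Of the 7 largest differences among the named genes, all but that of CSF3, described below, were in CXC chemokines with a Glu-Leu-Arg motif, which recruit neutrophils through CXCR1 and CXCR2. CXCL5 stood at 489, 3249 and 1339 CPM in replicate 4 (control shRNA, shRNA 1, shRNA 2 in this order here and below) against 2.97 to 27.6 CPM (median 10.3) in the other 9, a log2 difference of 7.13 (SE 0.47). CXCL1 stood at 882, 3365 and 2058 CPM against 6.90 to 61.6 (median 38.6), a difference of 6.06. CXCL3 stood at 136, 666 and 385 CPM against 1.06 to 11.3, a difference of 6.68. In each of these genes even the control shRNA library of replicate 4 was over 10 times the highest of the other 9 libraries. CXCL2 (31.5, 180 and 100 CPM against 0.46 to 3.93) and CXCL6 (79.3, 198 and 144 CPM against 0.637 to 5.58) differed by 5.82 and 5.50.

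These 5 genes and CXCL8 are neighbours. By RefSeq coordinates (GRCh38.p14) their start sites fall within 359 kb, between 73740569 and 74099195 of chromosome 4, where 10 genes have a listed promoter. Of these, 6 passed the filter on low counts, and those 6 are the 6 chemokines, all among the higher genes, beside 2.5% of all genes tested. All 6 were already named for their replicate 4 levels, so this count describes the choice and is no evidence of its own. PF4V1 and PPBP, which encode platelet chemokines and lie between them, did not pass the filter.

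CC chemokines, which attract lymphocytes and monocytes, were mixed. CCL20, the ligand of CCR6, stood at 9.48, 95.8 and 32.5 CPM against 0.287 to 3.25. CCL7, a monocyte attractant, stood at 35.1, 64.2 and 64.1 CPM against 1.15 to 5.98. CCL2, the main monocyte attractant of fibroblasts, overlapped between the groups, at 321, 567 and 561 CPM against 66.4 to 386. Of 23 chemokine genes listed, 17 passed the filter and 11 of these stood among the higher genes and 0 among the lower, beside 2.5% and 1.09% of all genes tested, with a list median of 3.63 against 0.00. One of the 11, CCL11, whose own difference is that median, held at most 3 counts in each of the other 9 libraries and gives no interpretable fold, and without it the count was 10 of 16 and the median 3.62. With CCL11 set to its lower bound against a floor of 3 counts a library the list median was 3.07. The interferon-inducible CXCL10, a T cell attractant, stood at 23.3, 22.2 and 32.2 CPM against 1.49 to 6.38, without the excess in the shRNA 1 library that the CXC genes above have. CXCL12, CXCL14, CXCL16, CCL26 and CX3CL1 overlapped, with differences between -0.52 and 0.42.

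Among interleukins and colony-stimulating factors, 9 of 16 tested members were among the higher genes, beside 2.5% of all genes, and 0 among the lower, with a median of 2.10. CSF3, the granulocyte growth factor G-CSF, stood at 24.2, 373 and 82.8 CPM against 0.115 to 5.48, a difference of 7.01 (SE 0.75), and 11 of the 12 DMSO libraries held no CSF3 count. IL1A, the membrane-bound interleukin-1 that starts the SASP cascade, stood at 9.43, 73.0 and 29.03 CPM against 0.328 to 7.80. IL33, an alarmin of the same family, stood at 13.1, 41.2 and 17.7 CPM against 0.802 to 2.34. TNFSF15, a TNF family ligand, stood at 128, 286 and 158 CPM against 6.37 to 26.3. Each of these 4 was lowest in the control shRNA library of replicate 4 and highest in the shRNA 1 library. IL11 (difference 3.37) and LIF (1.60), both ligands of the gp130 receptor family to which IL6 belongs, were also among the higher genes. IL15, IL18, CSF1 and TSLP overlapped, with differences between -0.22 and 0.41.

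Receptors of the same pathway were fewer. IL1R1, the signalling receptor of IL1A and IL1B, stood at 398, 534 and 387 CPM against 43.4 to 134, a difference of 2.20 (SE 0.22), and its DMSO levels of 174 to 354 CPM lay between the 2 groups. IRAK3, an inhibitor of IL-1 receptor signalling, stood at 20.2, 46.0 and 22.8 CPM against 1.25 to 11.8. IL13RA2, a decoy receptor for IL-13, stood at 29.1, 73.2 and 61.9 CPM against 0.917 to 5.45. Of the 12 tested members of the IL-1 receptor list, 3 were among the higher genes (2.5% of all genes), with a median of 0.51. MYD88, IRAK1, IRAK4 and TRAF6, which carry the signal from the receptor, overlapped between the groups at differences from -0.36 to -0.14.

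The NF-kB subunits and feedback genes were mixed. TNFAIP3, which encodes the ubiquitin editor A20 that shuts NF-kB off, stood at 51.2, 72.5 and 53.6 CPM against 8.15 to 20.1, a difference of 1.98 (SE 0.20). NFKBIZ, an inducible co-activator of NF-kB, stood at 106, 165 and 128 CPM against 26.6 to 71.7. SOD2, the mitochondrial superoxide dismutase and an NF-kB target, stood at 2894, 3168 and 3308 CPM against 708 to 1197, with nearly the same level in all 3 shRNAs. Of 21 tested members 6 were among the higher genes (2.5% of all genes), with a median of 0.66 against 0.00 for all genes. Among the subunits REL was one of the 6, at 6.94, 12.5 and 6.46 CPM against 0.63 to 5.02, and NFKB1 differed by 0.58 without overlap. RELA, the main activating subunit, overlapped at a difference of -0.34 (SE 0.20), as did the inhibitor genes NFKBIA at 0.75, NFKBIB at 0.10 and NFKBIE at -0.14, and the adhesion genes ICAM1 (0.04) and VCAM1 (0.00). Of 15 tested AP-1 and C/EBP factors 1 was among the higher genes, FOS, at 8.71, 14.7 and 5.27 CPM against 0.854 to 2.09.

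Of 13 tested prostaglandin genes 4 were higher, beside 2.5% of all genes. PTGS2, the inducible cyclooxygenase COX-2, stood at 91.4, 560 and 152 CPM against 2.37 to 15.05, a difference of 5.29. PTGES, which makes prostaglandin E2 from its product, stood at 72.6, 164 and 105 CPM against 5.73 to 23.5. PLA2G4A, the phospholipase that releases arachidonic acid, and PTGFR, the prostaglandin F receptor, differed by 1.97 and 1.76. PTGS1, the constitutive cyclooxygenase, overlapped at 0.30, as did the prostaglandin E2 receptors PTGER1, PTGER2 and PTGER4 at -0.09, -0.31 and -0.05.

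Among 14 tested metalloproteinases and inhibitors 2 were higher, beside 2.5% of all genes. MMP3, stromelysin-1, stood at 89.6, 992 and 188 CPM against 7.62 to 42.004, and MMP10, stromelysin-2, at 3.84, 8.87 and 5.70 CPM against 0.345 to 1.65. MMP1, the interstitial collagenase, overlapped, because its control shRNA library (456 CPM) lay inside the range of replicates 1 to 3 (150 to 736) while the shRNA 1 library (2323) lay above it. AREG and NRG1, ligands of the EGF receptor family, stood at 46.5 to 175 and 211 to 629 CPM against 3.44 to 10.0 and 37.5 to 101, and were the 2 higher genes of 8 tested (2.5% of all genes). The remaining genes of the 20 with the largest differences were BCL2A1, an anti-apoptotic NF-kB target (4.69), G0S2, a lipase inhibitor (4.201), and EDNRB, an endothelin receptor (3.93).

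**Figure D3:**
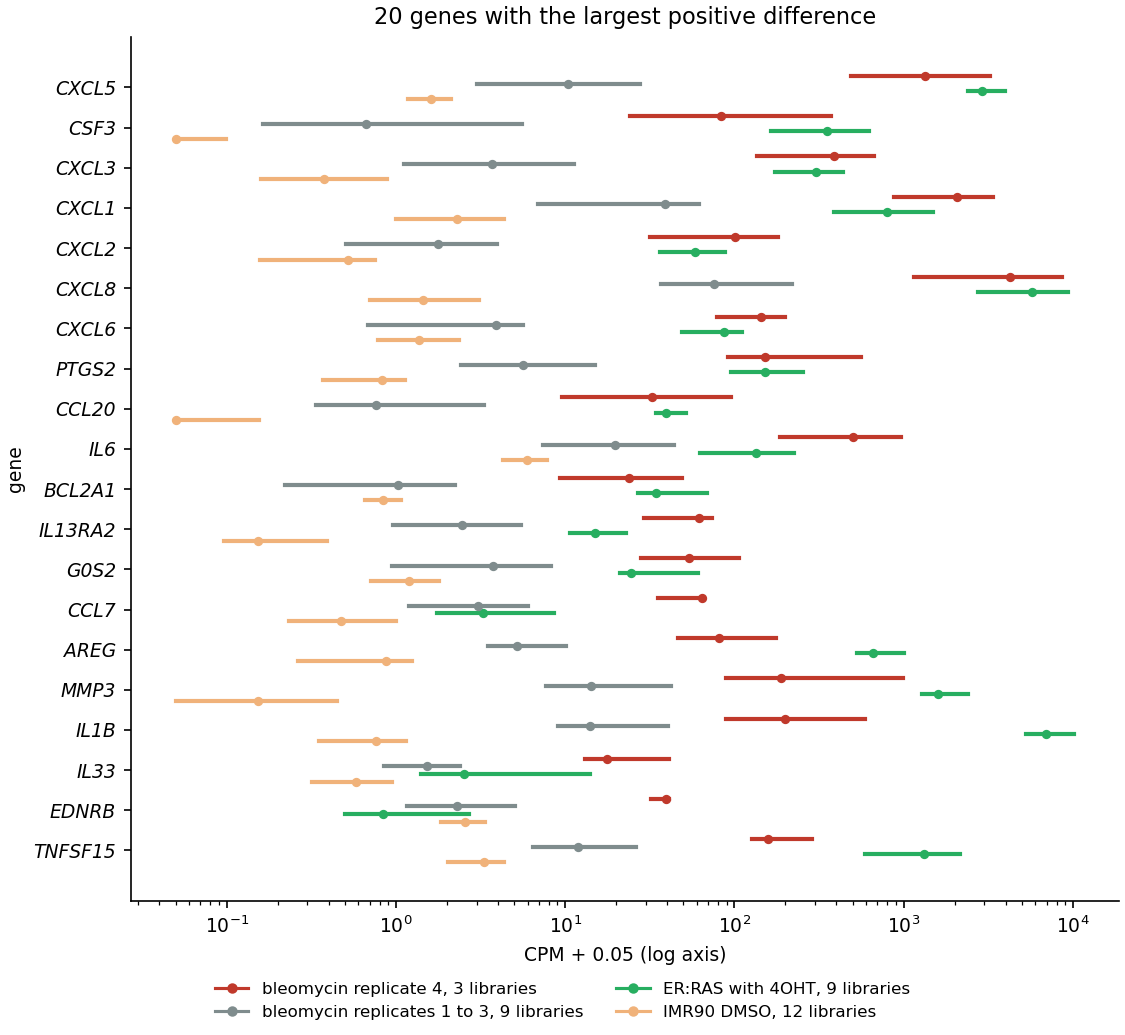
CPM plus 0.05 (log axis) of the 20 genes with the largest positive difference and at least 100 counts on average in replicate 4. Lines span the lowest to the highest library and points mark the median. The red lines (bleomycin replicate 4) lie to the right of the grey lines (replicates 1 to 3) for all 20 genes.

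Lists outside the secretory programme were described in the same way, and 2.5% of all genes tested were higher and 1.09% lower. Of 17 tested lung fibroblast identity genes, 5 were among the higher genes, 0 among the lower, and the median was 1.05. TCF21, a transcription factor of lung lipofibroblasts, stood at 245, 199 and 252 CPM against 41.8 to 81.3, and its 12 DMSO libraries lay at 62.7 to 97.9. FGF7, an epithelial growth factor made by mesenchyme, stood at 226, 202 and 221 CPM against 18.3 to 101. Unlike the CXC genes above, both genes had similar levels with the 3 shRNAs. All 18 tested ER chaperone genes had a positive difference, 1 among the higher genes (HSP90B1, at 1420, 1733 and 1665 CPM against 540 to 1155), and their median was 0.49. Of 35 tested cell cycle genes 2 (CCNE2 and RRM2) were higher and 0 lower, and from this count and the 1 of 18 chaperones nothing is read beyond those shares. MKI67, a marker of dividing cells, overlapped at 0.903 to 1.87 CPM against 0.0657 to 0.922 while DMSO libraries held 3.68 to 7.79.

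Of 24 tested p53 targets 0 were among the higher and 0 among the lower genes, with a median of 0.00. At any size of difference 4 of the 24 lay below all 9 other bleomycin libraries and 1 above. Of all 14783 genes 983 lay below and 720 above in that way. CDKN1A, the p21 cell cycle inhibitor, was 1 of the 4. It stood at 2228, 2043 and 2396 CPM, below the other 9 (2891 to 4578) and above all 12 DMSO libraries (320 to 936). In the interferon response list 1 of 21 tested genes was higher (IFI44), with a median of 0.16. Of 22 tested sterol synthesis genes 0 were higher and 0 lower by the size used, with a median of -0.28. The collagens had 1 of 21 tested genes among the higher (COL7A1) and the PERK and ATF4 stress genes 1 of 23 (VLDLR), with medians of 0.06 and 0.19 and 0 lower genes in each. NRF2 targets (16 tested), metallothioneins (4) and senescence-linked CDK inhibitors and chromatin genes (13) had 0 higher and 0 lower genes by the size used. Their medians were -0.08, 0.93 and 0.07. At any size 1 NRF2 target and 3 of the 13, CDKN1A among them, lay below the other 9, and 0 lay above. The coatomer list (9 tested) had 0 of either, and COPB2 itself differed by 0.00 between replicate 4 and replicates 1 to 3.

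**Figure D4:**
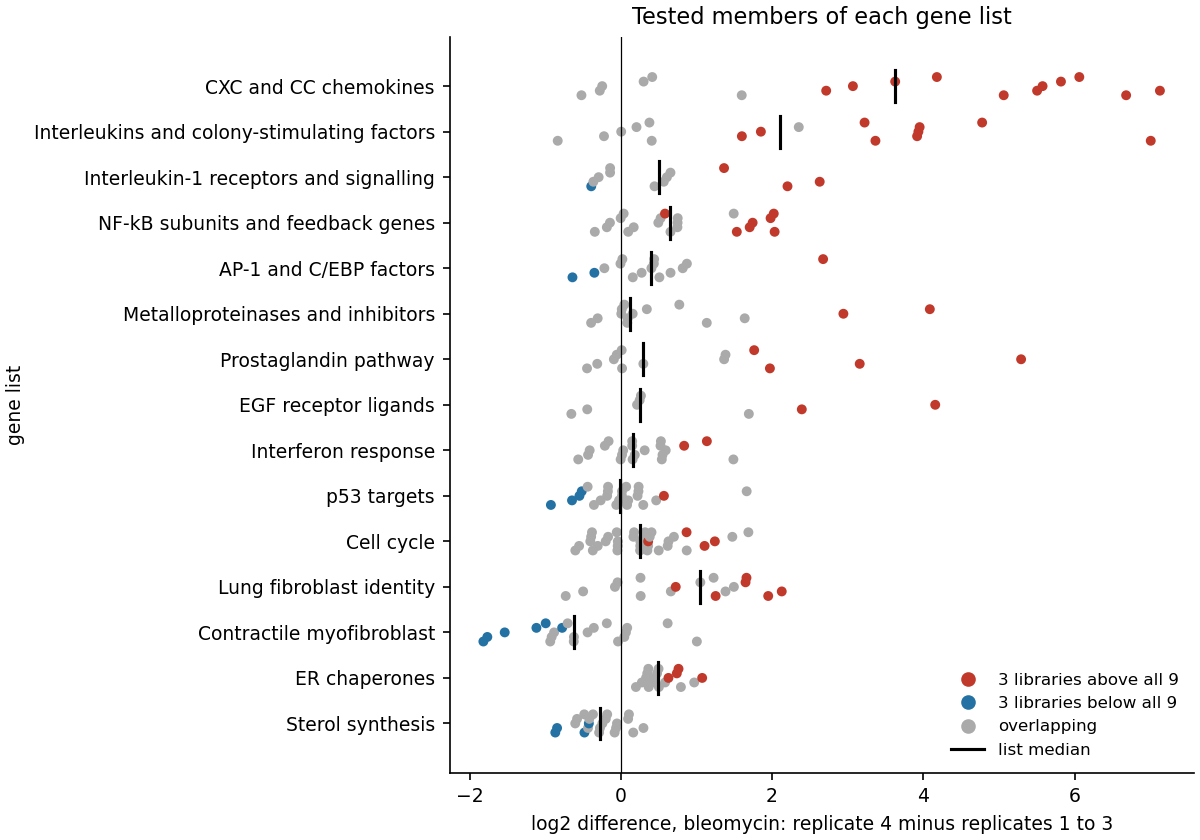
Log2 difference of bleomycin replicate 4 from replicates 1 to 3 for each tested member of 15 gene lists, with the list median as a bar. Red points have all 3 replicate 4 libraries above the other 9 and blue points all 3 below, at any size of difference, and the chemokine (median 3.63, or 3.07 with CCL11 at its lower bound) and interleukin (median 2.10) lists extend farthest to the right.

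The largest negative difference was in KRT19, a keratin of simple epithelia. It stood at 4.30, 2.54 and 5.32 CPM in replicate 4 against 16.7 to 47.8 in the other 9, a difference of -2.81 (SE 0.34), and its DMSO levels were 5.42 to 14.2. SERPINB7, a serine protease inhibitor, stood at 9.43, 6.01 and 6.32 CPM against 27.5 to 59.1, with DMSO at 2.78 to 4.99. CPA4, a carboxypeptidase, stood at 57.7, 17.3 and 36.4 CPM against 139 to 243, with DMSO at 27.6 to 52.6. On the log2 scale SERPINB7 and CPA4 changed from DMSO to bleomycin by 3.28 and 2.26 in replicates 1 to 3. Within replicate 4 the change was 0.94 and 0.19. These values are given without a test, because both genes were picked for lying lower in replicate 4 than in replicates 1 to 3.

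Of 21 tested contractile and myofibroblast genes, 4 were among the lower genes, beside 1.09% of all genes, 0 among the higher, and the median was -0.62. CNN1, calponin of smooth muscle, stood at 30.1, 12.2 and 20.6 CPM against 39.9 to 125. TAGLN, transgelin, stood at 336, 118 and 263 CPM against 392.3 to 1545. LRRC15, a myofibroblast surface protein, stood at 4.04, 3.80 and 1.81 CPM against 7.82 to 12.9, and ACTG2, an actin of smooth muscle, completed the 4 at -1.12. ACTA2, the alpha-smooth muscle actin that defines myofibroblasts, overlapped at -0.44 (SE 0.27). OXTR (the oxytocin receptor), NPTX1 (a neuronal pentraxin), SLC14A1 (a urea transporter), KRTAP2-3 (a keratin-associated protein), AHNAK2, NPAS1, GSG1, MAP3K7CL, MARCHF4 and TRNP1 made up the rest of the 15, with differences from -2.22 to -1.65.

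**Figure D5:**
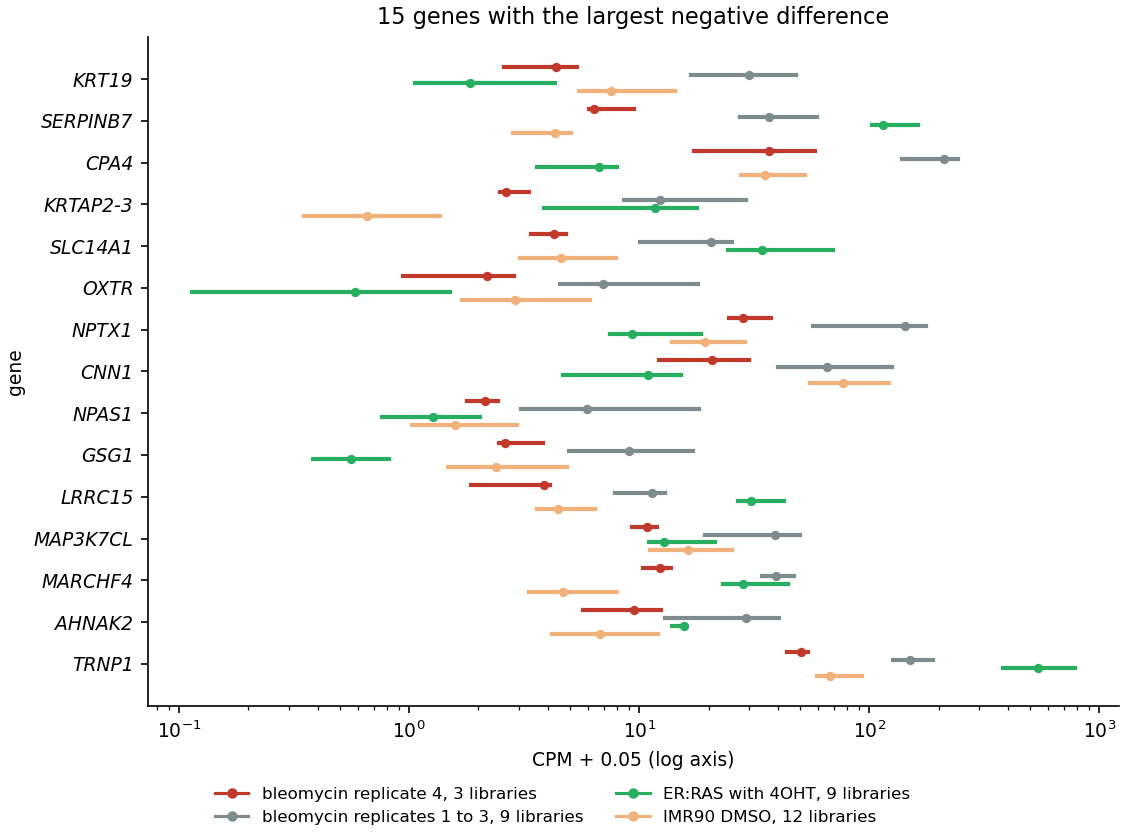
CPM plus 0.05 (log axis) of the 15 genes with the largest negative difference and at least 100 counts on average in replicates 1 to 3, drawn as lowest to highest library with the median as a point. The red lines (bleomycin replicate 4) lie to the left of the grey lines (replicates 1 to 3) for all 15, and for CPA4 and SLC14A1 they overlap the DMSO lines.

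Bleomycin was compared with DMSO in replicates 1 to 3 within the fit of all 24 IMR90 libraries, so replicate 4 entered the normalization and the estimate of spread. CXCL8 rose by 5.92 on the log2 scale (SE 0.43, adjusted p = 7.3e-10), IL1B by 4.57 (SE 0.39, adjusted p = 5.6e-09) and IL6 by 1.66 (SE 0.29, adjusted p = 6.5e-05) in edgeR's quasi-likelihood test, which called 28.3% of genes tested higher and 27.5% lower. The same test on the 18 libraries of replicates 1 to 3 alone gave 5.91, 4.56 and 1.65 (adjusted p = 6.6e-09, 1.2e-08 and 3.1e-05). It called 4009 genes higher and 3437 lower. Within replicate 4 the difference between bleomycin and DMSO was 11.4 for CXCL8, 8.38 for IL1B and 6.44 for IL6, given without a test. These replicate 4 differences share no library with those in replicates 1 to 3. The latter use the same bleomycin libraries that replicate 4 was chosen against. BCL2A1, EDNRB and TNFAIP3 differed by 0.20, -0.05 and -0.18 between bleomycin and DMSO in replicates 1 to 3. The difference within replicate 4 was 5.05 for BCL2A1 and 3.88 for EDNRB. These values are given without a test. All 3 genes were named among the higher genes of replicate 4, a choice that favours low values in replicates 1 to 3.

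The ER:RAS libraries share no sample with the choice of replicate 4 and give a second senescence programme for the same genes. In OIS CXCL8 lay at 2759 to 9408 CPM, so that bleomycin replicate 4 with shRNA 1 and shRNA 2 fell inside that range and the control shRNA library below it. IL6 lay at 62.6 to 226 CPM in OIS, and replicate 4 with both COPB2 shRNAs was above that range. IL1B lay at 5275 to 10120 CPM in OIS, and its highest replicate 4 library (591 CPM) was below all 9. The ordering of the 2 programmes therefore differed from marker to marker.

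Of the 369 higher genes 344 were tested in ER:RAS cells. OIS against DMSO called 145 of them higher, 42.2%, beside 24.1% of all 14010 genes tested in both cell lines, and 104 lower, 30.2%, beside 33.9%. The 145 are 4.29% of all genes called higher in OIS. Of the 161 lower genes 148 were tested, with 39 called higher (26.4%) and 76 lower (51.4%), and the 76 are 1.6% of all genes called lower in OIS. OIS raised 19 of the 20 genes named as highest in replicate 4 and lowered the other, EDNRB (log2 -1.21, adjusted p = 0.011). IL1R1, TCF21, FGF7 and PTGES, higher in replicate 4, were also called lower in OIS, at log2 changes of -2.30, -2.66, -2.79 and -0.96, with adjusted p-values of 7.6e-06, 3.7e-09, 0.0058 and 0.0015 by edgeR. CCL7 stood at 1.71 to 8.48 CPM in OIS, below all 3 replicate 4 libraries.

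COPB2 was knocked down in replicate 4 as in the others. With the control shRNA it stood at 381, 394, 548 and 480 CPM in bleomycin replicates 1 to 4. With shRNA 1 it stood at 82.2, 97.5, 115 and 87.5 CPM and with shRNA 2 at 82.1, 83.0, 120 and 93.9. For each shRNA the replicate 4 level lay inside the range of the other 3. Within replicate 4 all 20 named genes were highest with shRNA 1 and lowest with the control shRNA, with a median ratio to the control of 5.04 for shRNA 1 and 2.17 for shRNA 2. Over all 369 higher genes 230 were highest with shRNA 1, 79 with the control and 60 with shRNA 2, and the median ratios were 1.27 and 1.06.

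Whether the COPB2 shRNAs acted differently in replicate 4 was tested as an interaction over all genes in edgeR's quasi-likelihood test. For CXCL8 the shRNA effect was larger in replicate 4 by 1.60 on the log2 scale (SE 0.95), for IL6 by 1.46 (SE 0.71) and for IL1B by 1.57 (SE 0.80). These 3 values are given without a test, because replicate 4 was chosen on the same marker levels. Of 14783 genes 0 were called (0%), with 123 at an unadjusted p under 0.05. Since same-numbered bleomycin libraries deviated together, the fit was repeated with the replicate block. The block left the 3 markers at 1.501, 1.391 and 1.518. The call in that fit, LINC01279, a long non-coding RNA named after its values were seen, stood at -1.42 (SE 0.18). A single replicate 4 library for each shRNA gives this test little precision.

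The COPB2 shRNA effect averaged over replicate 4 and the others, with replicate 4 as a term of its own, called 8 genes higher and 1 lower of 14783 (0.0609%), the lower being COPB2 at -2.24 (SE 0.14, adjusted p = 1.9e-08). The higher genes with 100 counts or more were MFSD2A (1.29), CTH (1.23), DDIT3, which encodes the stress factor CHOP (0.90), and others of the ATF4 stress programme such as HERPUD1 (0.86), MTHFD2 (0.81) and ATF4 (0.68). All 8 higher calls were lost with the 12 bleomycin libraries alone, without replicate 1 and without replicate 3. Without replicate 2 the fit called 4 genes higher, and COPB2 was called in each of these fits. Taken apart in the main fit, shRNA 1 gave 0 higher calls and 1 lower, and shRNA 2 gave 14 higher and 2 lower. The ATF4 call was also lost when DESeq2 size factors replaced TMM (adjusted p = 0.0697), when low-count genes were kept (adjusted p = 0.119) and with no term for replicate 4 (adjusted p = 0.161). With the replicate block, which takes out the difference between numbers, 125 genes were called higher and 56 lower. The block calls included CXCL2 (1.67) and IL13RA2 (0.98), and the markers CXCL8, IL6 and IL1B were not among them. CXCL2 and IL13RA2 were named above for their replicate 4 levels in these same libraries, so their calls are no evidence of their own.

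The 42 libraries held 13148194 to 23597310 counts, and the bleomycin replicate 4 libraries, at 17522375 to 19409645, lay within the range of the other IMR90 libraries (15580424 to 23597310). The higher genes took 3.05%, 6.16% and 4.15% of all counts in replicate 4 against 0.619% to 1.37% in the other 9. ESR1, present in the ER:RAS construct, had 3 to 5 counts in the 3 libraries against 21136 to 39952 in ER:RAS libraries, and HRAS had 1060 to 1236 counts against 1124 to 2656 in bleomycin replicates 1 to 3. Fibroblast markers were abundant in all 3, at a summed level of 9180 to 16209 CPM against 12578 to 23295 in the other 9. VIM lay below the other 9 (75141 to 88202 counts against 88364 to 121114), while PDGFRA and FAP lay above them. Of 14 leukocyte markers, of which 4 passed the filter, 0 stood apart in either direction. Their summed level was 62.5 to 108 CPM against 56.9 to 101 in the other 9, mainly from CD68 (1122 to 2206 counts against 997 to 2016). The defining markers PTPRC and CD14 held 14 to 24 and 12 to 22 counts. Epithelial markers summed to 10.99 to 14.5 CPM against 21.1 to 54.7, with SFTPB at 0 counts. Of these markers KRT19 lay below the other 9 (54 to 112 counts against 306 to 728) and ELF3 above them (86 to 115 against 6 to 33). Endothelial markers summed to 32.2 to 42.4 CPM against 18.4 to 33.5, mainly from TEK and EGFL7. TEK (357 to 620 counts against 82 to 292) and CLDN5 (9 to 43 against 1 to 8) lay above the other 9, and EGFL7 overlapped. Fewer cells of a type and less RNA per cell cannot be told apart in bulk libraries.

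Replicate 3 was the nearest of the others to replicate 4 for 199 of the 369 higher genes. For the 20 named higher genes it was nearest in 3, replicate 2 in 3 and replicate 1 in 14. Of the 161 lower genes replicates 1, 2 and 3 were nearest for 59, 35 and 67. Without replicate 3 the numbers were 938 higher and 274 lower genes. Without the bleomycin shRNA 2 library of replicate 2, whose scaling factor (0.873) lay below that of all other IMR90 libraries, they were 376 and 165. What set replicate 4 apart under bleomycin was not tested, and the culture, the treatment and the library preparation that share its number cannot be told apart.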

How the data were processed

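42 libraries of poly(A) RNA were sequenced by the study (single-end reads, a directional kit), and the authors deposited 1 table of raw read counts per gene symbol. The submitters' processing notes name DRAGEN, STAR 2.7.8a, DESeq2 1.32.0 and hg38, whereas the methods name Tophat and hg19. The study's software list names HTSeq, and Tophat was run with a first-strand setting, but which route made this table, and the strand setting of its counting, are not settled by these sources, so overlapping and antisense genes may share counts. 0 columns lacked a sample.

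Counts were filtered on low values (filterByExpr at its defaults, by group) and TMM-normalized in edgeR 4.0.16 (R 4.3.3). The 24 IMR90 libraries were fitted together by quasi-likelihood, with a term for each treatment and shRNA and terms for replicate 4, and the 18 ER:RAS libraries apart. P-values were Benjamini-Hochberg adjusted over all genes tested, with a threshold of 0.05. DESeq2 1.42.0 was an alternative. CPM levels used TMM factors of all 42 libraries. Named genes were CXCL8, IL6 and IL1B, and the 20 largest and 15 smallest differences among genes without overlap and with at least 100 counts on average in the higher group, list members, and up to 5 called genes a direction elsewhere. The members, lists and rules were chosen with earlier results of these data known. List members that did not pass the filter were left out. Fits were tested on simulated data with independent libraries, which do not cover the shared deviation of same-numbered libraries given below.

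Same-numbered bleomycin libraries with different shRNAs deviated together (correlation of deviations from group means 0.481 to 0.871, 12 of 12 pairs over 0.1), so the replicate block is given beside shRNA contrasts. Same-numbered DMSO libraries also did (0.174 to 0.910, 12 of 12 pairs over 0.1). Between bleomycin and DMSO libraries 7 of 12 pairs were over 0.1. No pair of libraries was a duplicate. Library totals of 13148194 to 23597310 put 3 counts at 0.11 to 0.271 CPM.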

Additional observations from a re-analysis of the deposited data

Results flagged for a closer look

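In groups of 4 libraries, replicate 4 stood apart by Dixon's ratio (its gap to the nearest library divided by the range of the group, set against the critical value for 4 values) for all 3 markers in each bleomycin group. In the order control, COPB2 shRNA 1 and COPB2 shRNA 2, the ratio for CXCL8 was 0.946, 0.995 and 0.962. It was 0.932, 0.986 and 0.961 for IL6, and 0.835, 0.986 and 0.842 for IL1B. In the 3 DMSO groups no marker passed. These libraries were selected on the same values, so the ratios describe the choice and are no evidence of their own.

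Among the 20 genes named as highest, 18 passed in the bleomycin control group, 20 in the shRNA 1 group and 19 in the shRNA 2 group, each time with replicate 4 as the far library. In DMSO 3 of the 20 passed with the control shRNA (replicate 4 in 1 of them) and 1 with shRNA 2, where it was replicate 4. Among the 15 lowest genes 1, 1 and 4 passed under bleomycin in the same order of groups (replicate 4 in 1, 1 and 3). In DMSO 2 passed with shRNA 1 and 1 with shRNA 2, none of them in replicate 4. About 1 group in 20 passes for independent normal values. The genes were picked for their distance in bleomycin replicate 4, so the bleomycin counts describe the choice and are no evidence.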

How the results depend on the processing

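The differences of CXCL8, IL6 and IL1B in bleomycin replicate 4 kept their sign under each alternative run. Leaving out replicates 1, 2 or 3 in turn gave 405 to 938 higher and 190 to 274 lower genes, the most without replicate 3, and a size of at least 2 gave 95 and 13. The control shRNA alone gave 523 and 199, and leaving out bleomycin shRNA 2 replicate 2, added after seeing the data, 376 and 165. In DMSO, leaving out 1 replicate number gave 0 to 1 higher calls (1 without replicate 2), and absence of overlap, chosen after seeing the data, gave 3 higher and 7 lower genes. The DMSO difference ranged from -0.24 to 0.28 for CXCL8 and from -0.12 to 0.10 for IL6 as replicates were left out, changing sign without replicate 2 (CXCL8) and without replicate 1 (IL6), and for IL6 also with a random replicate block (0.00402). Bleomycin against DMSO in replicates 1 to 3 called 6501 higher without the filter on low counts, and 1535 higher and 1439 lower at a size of at least 1. OIS called 1917 and 2956 at that size.

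For the COPB2 shRNAs, leaving out 1 replicate gave 0 to 4 higher calls, a size of at least 1 gave 4, the 12 bleomycin libraries alone gave 0, DESeq2's Wald test gave 21 higher and 2 lower, and 2 were lower without that library. The replicate block gave 125 and 56, and 1 lower call for the interaction, and changed no other call count by over 1.5 times. The causes were not tested. Between bleomycin and DMSO the correlations of same-numbered libraries were mixed (-0.629 to 0.709, median 0.310), so whether the numbers pair those samples is not settled. Without bleomycin shRNA 2 replicate 2, 12 of 17 chemokines and 9 of 16 interleukins lay above the others without overlap, at any size of difference. With all libraries 11 and 9 did, beside 720 of all 14783 genes tested. Genes with levels near 3 counts, such as CCL20 in DMSO, carry no interpretable fold.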

Other observations

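Among genes higher in bleomycin replicate 4 but called lower in OIS, the largest differences, chosen after the values were seen, were in EDNRB (3.93 in replicate 4, -1.21 in OIS), PDK4, a kinase that restrains pyruvate oxidation (3.58 and -3.06), ABCA6, a lipid transporter (3.47 and -2.34), and FGL2, a fibrinogen-like secreted protein (3.37 in replicate 4, with OIS libraries at 0 to 0.0902 CPM, too low for a fold). CCL11, the eosinophil attractant eotaxin, was in the same set, but its levels give no interpretable fold. It was at 0.518, 0.235 and 0.808 CPM in replicate 4 and between 0 and 0.146 CPM in the other 9 bleomycin libraries, with DMSO libraries at 0.146 to 1.20 CPM and all OIS libraries at 0. Its levels in replicate 4 therefore lay inside the range of vehicle-treated cells.

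The epithelial-type transcription factor ELF3 stood at 4.46, 5.399 and 5.46 CPM in replicate 4 against 0.345 to 1.84 CPM in the other bleomycin libraries and 0.0902 to 0.658 CPM in DMSO, while the epithelial keratin KRT19 was lower, at 2.54 to 5.32 CPM against 16.7 to 47.8. GDF15, a stress cytokine and p53 target, stood at 912, 2919 and 1697 CPM in replicate 4 against 349 to 916 CPM.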
